A study of Mus musculus with 28 samples.

Results

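The genes described here are 9 genes of bone morphogenetic protein (BMP) signalling, taken by name from the 25719 genes counted in mouse tail tendon. They comprise the ligands Bmp2, Bmp4, Bmp5 and Bmp6, the secreted antagonist Grem1, the target genes Id1, Id2 and Id3, and the inhibitory Smad gene Smad6, and all 9 were found in the count files. Bulk RNA-sequencing was done on homogenates of tail tendon fascicles, with 1 library per mouse. Fosl-2(Tg) mice carry a randomly inserted transgene of murine Fosl2, a gene for an AP-1 factor, joined to eGFP and driven by H2Kb, a major histocompatibility complex class I promoter that is active in most cell types. The WT controls came out of the transgenic colony but lacked the transgene, and all mice were of the C57BL/6 background. The early stage comprised 7 WT and 8 Fosl-2(Tg) mice aged 6 to 8 weeks, all male. The established stage comprised 6 WT mice (5 female, 1 male) and 7 Fosl-2(Tg) mice (6 female, 1 male) older than 14 weeks. Stage and sex therefore cannot be told apart, whereas within a stage both genotypes had nearly the same sex composition.

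BMP ligands are secreted growth factors of the TGF-β superfamily that bind type I and type II serine/threonine kinase receptors at the cell surface. The activated receptors phosphorylate SMAD1, SMAD5 and SMAD9, which enter the nucleus with SMAD4 and switch on target genes such as the Id genes, whose products bind basic helix-loop-helix factors and keep them from DNA. Extracellular antagonists such as Gremlin 1 and noggin trap the ligands, and SMAD6 and SMAD7 are induced by the pathway and inhibit it. BMP signals are known in tendon for their part in the formation of the tendon-to-bone attachment and in ectopic cartilage and bone.

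Library totals ranged from 9645598 to 66894396 counts on genes, with a median of 18685759. Levels are given as CPM, which are counts scaled to a common library size with the trimmed mean of M-values (TMM), and group values as mean ± SD. Fosl2 itself was 88.7 ± 26.1 CPM in early WT mice (n = 7), 102 ± 40.5 in early Fosl-2(Tg) mice (n = 8), 111 ± 32.7 in established WT mice (n = 6) and 143 ± 15.8 in established Fosl-2(Tg) mice (n = 7). The genotypes overlapped, and Fosl2 passed the test at neither stage (edgeR quasi-likelihood test, log2 fold change 0.20 and FDR 0.918 early, 0.38 and FDR 0.141 established). The tissue carried its defining tendon markers, with Tnmd at 1311 CPM and Scx at 90.0 CPM over the 28 mice. Summed over 10 tendon markers, the level ranged from 101556 to 192242 CPM in established WT mice. In established Fosl-2(Tg) mice it ranged from 7228 to 81160 CPM, so these groups did not overlap. This sum leans on its most abundant genes, since Col1a1 alone averaged 138542 CPM over the 28 mice. The sum of 10 skeletal muscle markers ranged from 64.4 to 17204 CPM in established WT mice (median 1767). Its range in established Fosl-2(Tg) mice was 43.3 to 5586 CPM (median 372). That of 10 endothelial markers ranged from 25.1 to 99.5 CPM over the established mice. Macrophage markers, also 10, summed to 586 to 824 CPM in established WT mice (median 756). Their sum was 714 to 1081 CPM in established Fosl-2(Tg) mice (median 930). Every marker had a count in at least 1 library.

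Among early mice, the libraries with the lowest numbers in the labels (49 to 52, which are early WT replicates 1 to 3 and early Fosl-2(Tg) replicate 1) stood apart in 4 of the 9 genes. Id1, Id3, Bmp2 and Smad6 were each higher in all 4 of these libraries than in any of the other 11 early libraries. Of the 15138 genes tested at the early stage, 5.31% were higher and 5.03% lower in all 4 than in all 11. Whether a library number marks a preparation batch is not given in the sources used here. Marker sums also differed, with ranges that overlapped. The skeletal muscle sum had a median of 652 CPM in libraries 49 to 52 (85.7 to 4852) and 5058 CPM in the other 11 (309 to 8913). Tendon medians were 237958 and 443633 CPM. Macrophage markers went the other way, with medians of 1075 CPM (899 to 1163) and 754 CPM (626 to 996). The part of tissue make-up in this split was not tested. Results that rest on libraries 49 to 52 are given with and without them.

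For the 3 genes that differed between genotypes at the established stage, the 250 bases before the RefSeq gene start are shown, 5′ to 3′ on the strand of the gene. Capitals mark GGCGCC, a GC-rich motif bound by SMAD1 and SMAD5, which is in Id2 and in neither of the others. The sequences are those of RefSeq (table build GRCm38.p6), and each matched a single place in GRCm39, the build of the count files: Id2 at chr12:25146092-25146341 (minus strand), Bmp6 at chr13:38529442-38529691 (plus strand) and Bmp4 at chr14:46628127-46628376 (minus strand). All 3 windows lie inside the span that GENCODE release M39 gives the gene, which also holds starts farther upstream.
Id2: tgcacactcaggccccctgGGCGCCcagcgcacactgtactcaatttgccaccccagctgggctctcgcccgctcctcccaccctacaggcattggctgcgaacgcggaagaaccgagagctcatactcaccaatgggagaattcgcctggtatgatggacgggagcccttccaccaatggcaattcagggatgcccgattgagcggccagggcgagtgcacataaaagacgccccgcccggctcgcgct
Bmp6: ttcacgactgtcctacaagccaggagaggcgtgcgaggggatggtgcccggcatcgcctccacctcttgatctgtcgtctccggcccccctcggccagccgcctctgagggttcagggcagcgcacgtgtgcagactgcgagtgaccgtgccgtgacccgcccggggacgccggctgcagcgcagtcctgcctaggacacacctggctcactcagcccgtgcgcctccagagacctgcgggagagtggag
Bmp4: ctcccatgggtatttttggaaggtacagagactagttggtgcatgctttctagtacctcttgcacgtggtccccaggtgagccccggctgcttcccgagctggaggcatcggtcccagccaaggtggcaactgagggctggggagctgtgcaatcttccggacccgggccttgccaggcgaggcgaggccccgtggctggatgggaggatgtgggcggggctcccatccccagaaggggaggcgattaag
In windows of 250 bases before to 50 bases after the start, GGCGCC occurred in Id2, 231 bases before the start, and in Grem1, 78 bases before it. It occurred in 3898 of all 32851 promoters of the table (11.9%). The AP-1 motif TGANTCA was found in none of the 7 genes with an entry (Bmp4, Bmp5, Bmp6, Grem1, Id2, Id3 and Smad6) and in 7.81% of all promoters. Both motifs read the same on either strand and do not overlap each other here. A match is a description of letters, not of binding.

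The 9 genes differed widely in level. Per kilobase of exon, which allows genes to be set side by side, Id3 was highest over the 28 mice (34.3 ± 14.9 CPM per kb, SD over mice). Bmp6 (12.96 ± 3.85), Id1 (11.6 ± 5.82), Bmp2 (10.5 ± 5.15), Id2 (9.89 ± 4.14), Smad6 (9.76 ± 3.60) and Bmp4 (7.90 ± 1.62) followed, and neighbours among these 6 differed by less than the larger of their SDs. Bmp5 was lower (1.14 ± 0.562 CPM per kb), and Grem1 was lowest (0.178 ± 0.189 CPM per kb), with 1 to 96 counts per library. The plot of each gene by mouse shows the levels per group.

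**Figure D1:**
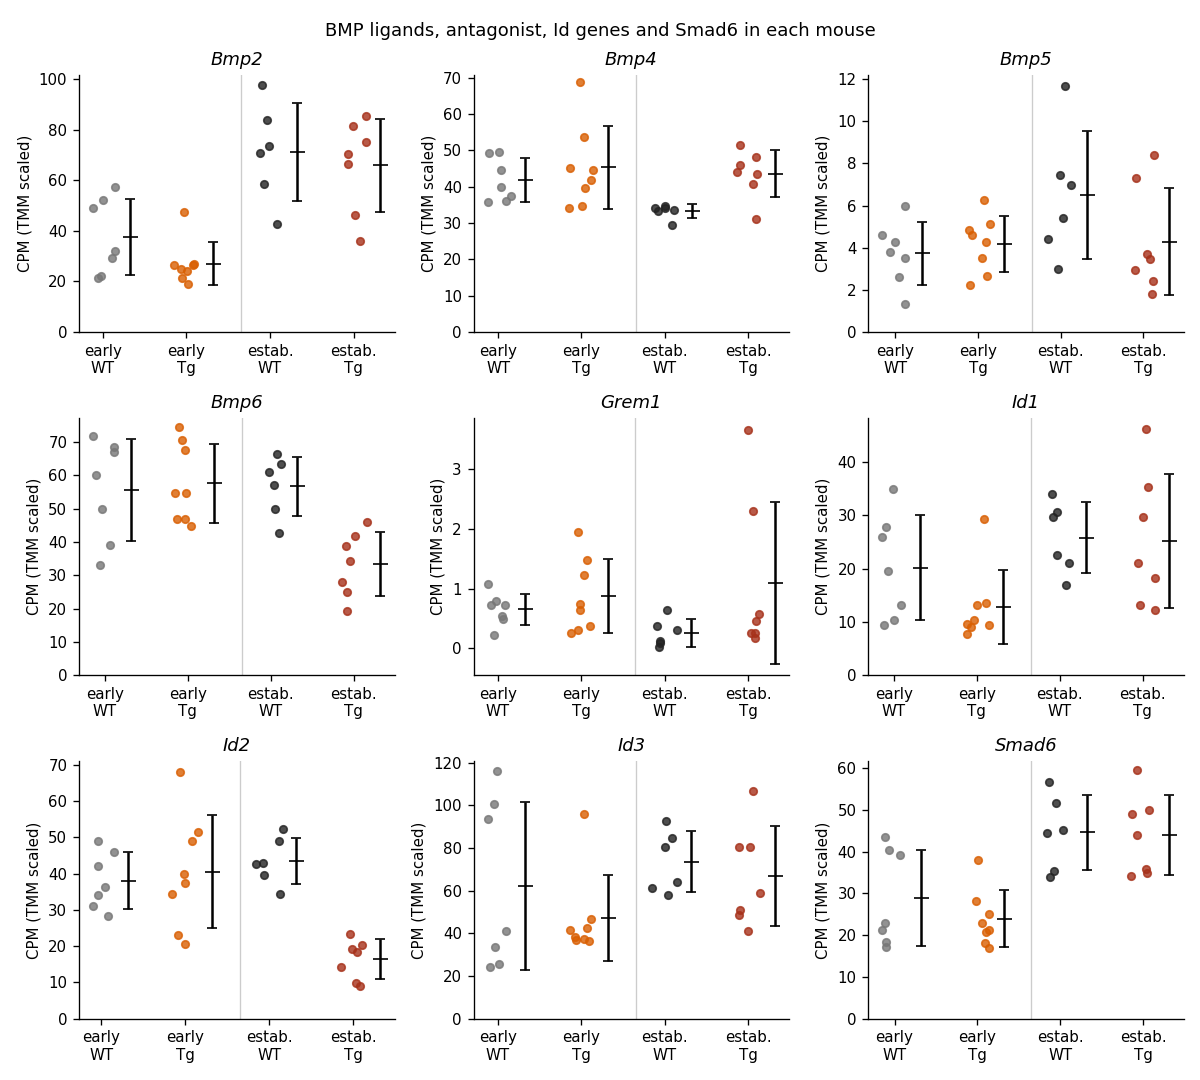
CPM after TMM scaling (y axis) of each of the 9 genes in the 28 mice, by stage and genotype (x axis; Tg, Fosl-2(Tg)). Points are mice and bars are the mean with 1 SD; the y axis differs between panels. In established mice, all Id2 points of Fosl-2(Tg) mice (8.88 to 23.5 CPM) lie below all WT points (34.5 to 52.3 CPM).

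Whether the transgene was accompanied by a change in BMP signalling genes was examined within each stage. In established tendons, Id2 was lower, Bmp6 was lower and Bmp4 was higher in Fosl-2(Tg) mice, and the other 5 genes tested did not pass the test. These 3 of 8 members tested (FDR of at most 0.05) compare with 1032 of all 15862 genes tested, which is 6.51%. The members were chosen with earlier results of these data known, so this share cannot test the pathway. Grem1 was removed by edgeR's count filter at this stage. DESeq2, which tested all 9, called the same 3 genes. In early tendons none of the 9 genes passed edgeR's test, and none had an unadjusted p under 0.05 there. There was also no member whose genotypes did not overlap, against 0.0528% of all genes. DESeq2 and limma voom also called 0 of them, with 2 each at an unadjusted p under 0.05. Of all genes, 1141 of 21119 had such a p by DESeq2 and 1927 of 15138 by limma voom. In the early comparison 6 of all 15138 genes passed (0.0396%), and 11 passed with the replicate number as a block, again with no member. With that block Id1 had an unadjusted p of 0.0324 in edgeR's test (log2 fold change -0.54, FDR 0.402). The median log2 fold change of the members was 0.05 early, against -0.01 for all genes tested, and -0.12 established, against 0.01.

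**Figure D2:**
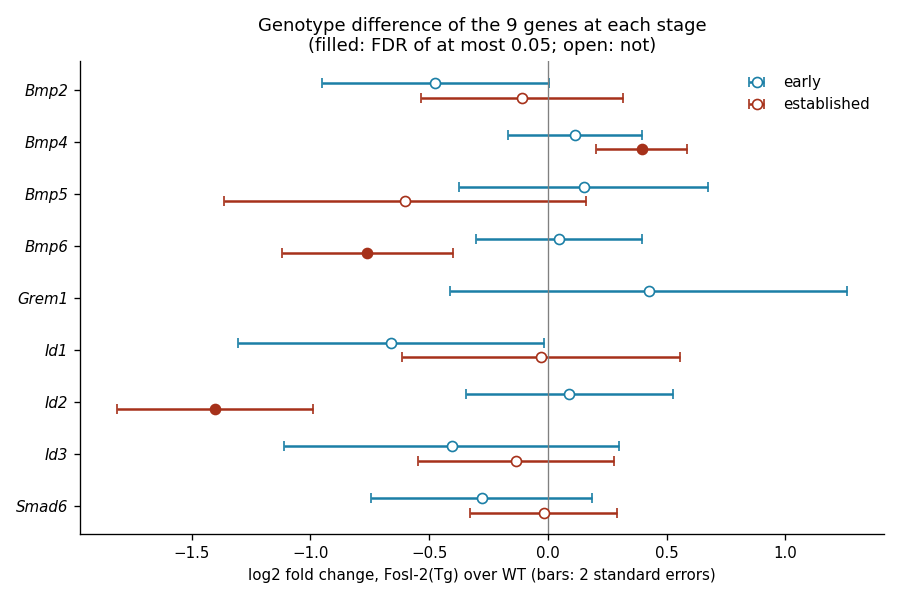
log2 fold change of Fosl-2(Tg) over WT mice (x axis) for the 9 genes (y axis) at the early and the established stage, from edgeR; bars are 2 standard errors and filled points have an FDR of at most 0.05. Filled points are Id2 (-1.40), Bmp6 (-0.76) and Bmp4 (0.39), all established; Grem1 was tested only at the early stage.

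Id2 encodes an inhibitor of basic helix-loop-helix factors and is a target of BMP signals in many cells. Its identifier is ENSMUSG00000020644, on chromosome 12 from 25143798 to 25147282 (GRCm39, minus strand). In established WT mice it was lowest at 34.5 CPM, with a median of 42.7 and a highest value of 52.3. In established Fosl-2(Tg) mice the lowest value was 8.88 CPM, the median 18.3 and the highest 23.5. Every Fosl-2(Tg) mouse was thus below every WT mouse, which was the case for 1 of the 8 members tested and, in either direction, for 3.81% of all genes tested at this stage. Id2 fell by 1.40 on the log2 scale (SE 0.21), or to 0.378 of the WT level (edgeR, FDR 0.00721). In bulk tissue, fewer cells of a type and less RNA per cell cannot be told apart. Tendon markers, summed above, were also lower in these mice, with 4 of 10 called lower (Scx by -1.27 and Col1a1 by -2.50 on the log2 scale). All 10 tendon marker estimates were below 0. Of 5 chondrocyte markers tested 3 were called lower, 4 estimates were below 0 and 1 was above (1.10). The sum of the 6 chondrocyte markers ranged from 425.1 to 569 CPM in established WT and from 40.3 to 424.7 CPM in established Fosl-2(Tg) mice. The part of either list in the Id2 difference was not tested. With a muscle score as covariate Id2 was at -1.46 (FDR 0.00269). The call held when any 1 of the 13 mice was left out, with log2 fold changes from -1.51 to -1.30.

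At the early stage Id2 ranged from 28.2 to 48.99 CPM in WT mice (median 36.3) and from 20.6 to 68.1 CPM in Fosl-2(Tg) mice (median 38.5). The Fosl-2(Tg) mice thus spanned the WT range on both sides, and the log2 fold change was 0.09 (SE 0.22, FDR 0.963). The difference of the genotype effects between stages was tested by an interaction term in a single fit of the 4 groups, in which 1195 of 16082 genes passed (7.43%). Id2 was the only 1 of the 9 members to pass edgeR's test (interaction on the log2 scale -1.50, SE 0.32, FDR 0.00740). Without libraries 49 to 52 the estimate was -1.43 (SE 0.37) and the FDR 0.0571, in a fit in which 150 genes passed. For Bmp6 the interaction was -0.81 (SE 0.26, FDR 0.0513), and it passed once replicate numbers were blocked within both stages (-0.88, FDR 0.00977). Without libraries 49 to 52 it was -1.04 (SE 0.27, FDR 0.0589). For the other members the FDR was 0.252 or higher in the fit of all mice without the block.

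Id1 and Id3 encode related inhibitors that are also known BMP targets. In established mice Id1 ranged from 16.9 to 34.1 CPM in WT (median 26.2) and from 12.2 to 46.3 CPM in Fosl-2(Tg) mice (median 21.0). Id3 ranged from 57.8 to 92.8 CPM in WT (median 72.1) and from 40.8 to 107 CPM in Fosl-2(Tg) mice (median 59.0). For both genes the Fosl-2(Tg) mice included the lowest and the highest value of the stage. The log2 fold changes were -0.03 for Id1 (SE 0.29, FDR 0.959) and -0.13 for Id3 (SE 0.21, FDR 0.706). Their intervals of 2 SE reached from -0.62 to 0.56 for Id1 and from -0.55 to 0.28 for Id3. The Id2 estimate of -1.40 lay outside both intervals, but a difference between the Id genes was not tested.

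At the early stage, Id1 was 20.2 ± 9.79 CPM in WT (n = 7) and 12.8 ± 6.98 CPM in Fosl-2(Tg) mice (n = 8), with a log2 fold change of -0.66 (SE 0.32, FDR 0.830). Id3 was 62.1 ± 39.6 CPM in WT and 47.0 ± 20.1 CPM in Fosl-2(Tg) mice (log2 fold change -0.40, SE 0.35, FDR 0.899). Of the 4 libraries that stood apart 3 were WT, as the plot by library number shows. In the remaining 4 WT and 7 Fosl-2(Tg) early mice, Id1 ranged from 9.41 to 19.6 CPM in WT and from 7.76 to 13.5 CPM in Fosl-2(Tg) mice (log2 fold change -0.33, SE 0.20, FDR 0.897). Id3 then ranged from 24.03 to 41.1 CPM in WT and from 36.5 to 46.8 CPM in Fosl-2(Tg) mice, and its estimate turned to 0.37 (SE 0.13, FDR 0.897). Neither passed edgeR's test in either set of mice.

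**Figure D3:**
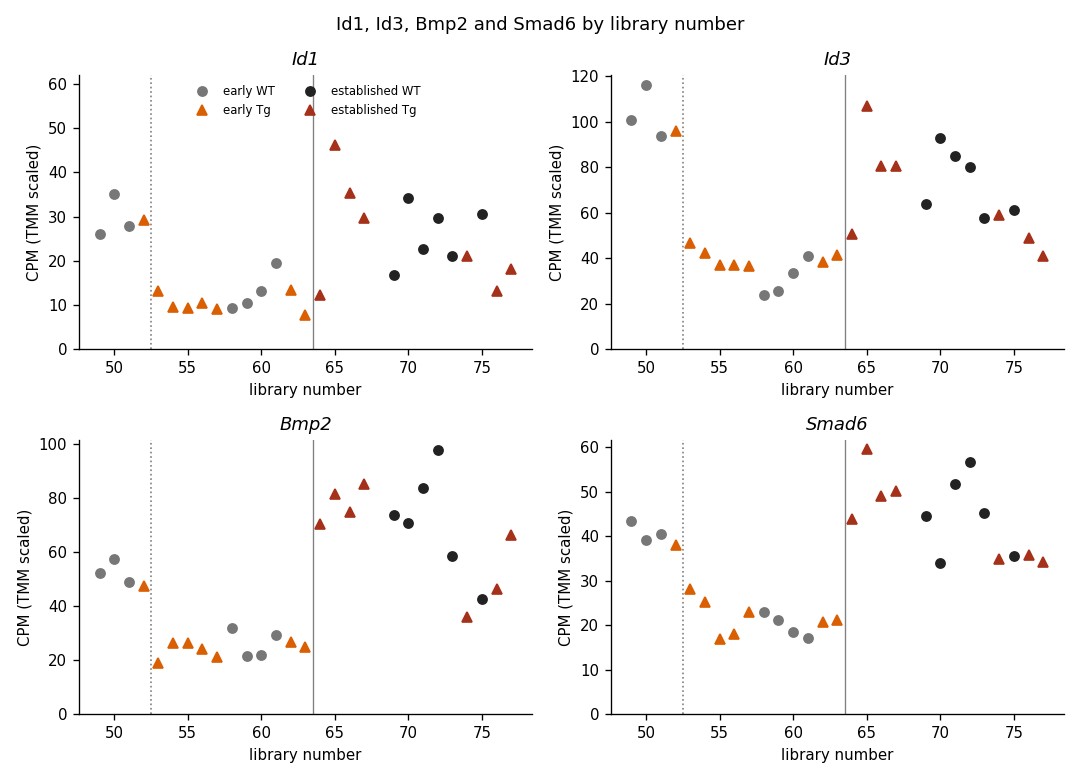
CPM after TMM scaling (y axis) of Id1, Id3, Bmp2 and Smad6 in the 28 mice by the library number in the labels (x axis); circles are WT and triangles Fosl-2(Tg) mice, the dotted line follows library 52 and the solid line parts the early from the established mice. The 4 libraries left of the dotted line lie above the other 11 early libraries in all 4 genes, at 93.6 to 116 CPM against 24.03 to 46.8 CPM for Id3.

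Smad6 encodes an inhibitory SMAD that competes with the signalling SMADs and is itself induced by BMP. In established mice it ranged from 33.9 to 56.7 CPM in WT (median 44.9) and from 34.2 to 59.55 CPM in Fosl-2(Tg) mice (median 43.9). The ranges nearly coincided, and the log2 fold change was -0.02 (SE 0.15, FDR 0.953), with an interval of 2 SE from -0.33 to 0.29. At the early stage Smad6 was 28.9 ± 11.5 CPM in WT and 23.9 ± 6.79 CPM in Fosl-2(Tg) mice (log2 fold change -0.28, SE 0.23, FDR 0.886). Libraries 49 to 52 held 38.1 to 43.4 CPM and the other early libraries 16.9 to 28.1 CPM. Without those libraries the estimate was 0.15 (SE 0.14, FDR 0.904).

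Bmp6 encodes a ligand of the BMP5, BMP6 and BMP7 subgroup that is also known for its control of iron metabolism. Its identifier is ENSMUSG00000039004, on chromosome 13 from 38529065 to 38684280 (GRCm39, plus strand). In established WT mice it was lowest at 42.7 CPM, with a median of 58.9 and a highest value of 66.2. In Fosl-2(Tg) mice of this stage the lowest value was 19.3 CPM, the median 34.3 and the highest 45.9. The groups overlapped, since 1 WT mouse (replicate 6, 42.7 CPM) was below the highest Fosl-2(Tg) mouse (replicate 4, 45.9 CPM). Bmp6 fell by 0.76 on the log2 scale (SE 0.18, FDR 0.0292), to 0.590 of the WT level. The call was lost without established Fosl-2(Tg) replicate 1 (FDR 0.0555) or without WT replicate 1 (0.0629), 4 (0.0603) or 5 (0.0550), while the estimate stayed between -0.85 and -0.67 whichever mouse was left out. Within the Fosl-2(Tg) mice, libraries 64 to 67 held 34.3 to 45.9 CPM and libraries 74, 76 and 77 held 19.3 to 28.1 CPM. Within the WT mice, libraries 69 to 73 held 50.01 to 66.2 CPM and library 75, which is replicate 6, held 42.7 CPM. The later libraries were thus the lower ones in both genotypes, with a single WT mouse among them. The part of library number in the Bmp6 difference was not tested.

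The exons of Bmp6 share 226 bases with Txndc5, a gene on the opposite strand with a mean of 235 CPM, and the labels name a library kit that does not mark strand. Reads from the shared bases cannot be assigned to either gene. Txndc5 was 228 ± 27.8 CPM in established WT and 160 ± 46.1 CPM in established Fosl-2(Tg) mice, without overlap, and did not pass the test (log2 fold change -0.51, SE 0.19, FDR 0.106). Its part in the Bmp6 difference was not tested. In early mice Bmp6 was 55.6 ± 15.2 CPM in WT and 57.5 ± 11.7 CPM in Fosl-2(Tg) mice, with a log2 fold change of 0.05 (SE 0.17, FDR 0.975).

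Bmp4 encodes a ligand of the BMP2 and BMP4 subgroup, which acts in patterning of mesoderm and skeleton. Its identifier is ENSMUSG00000021835, on chromosome 14 from 46620250 to 46636745 (GRCm39, minus strand). The 6 established WT mice lay close together, from 29.5 to 34.8 CPM with a median of 33.8. The 7 Fosl-2(Tg) mice ranged from 31.0 to 51.5 CPM with a median of 44.0. Of these 6 were above every WT mouse, and the exception was replicate 5, the male, at 31.0 CPM, which lay above the WT male (replicate 5, 29.5 CPM). Established Fosl-2(Tg) mice were 0.39 higher in Bmp4 than established WT mice on the log2 scale (SE 0.10, FDR 0.0317), or 1.31-fold. The call was lost without Fosl-2(Tg) replicate 1 (FDR 0.0603) or 3 (0.0538), or without WT replicate 1 (0.0633), 2 (0.0652), 4 (0.0566), 5 (0.0685) or 6 (0.0541). The estimate itself moved only between 0.35 and 0.46 when 1 mouse was left out, and without both males it was 0.43 (FDR 0.0109). In the fit of all 28 mice Bmp4 just missed the threshold (0.39, FDR 0.0563). At the early stage Bmp4 was 41.8 ± 5.98 CPM in WT and 45.3 ± 11.4 CPM in Fosl-2(Tg) mice (log2 fold change 0.11, SE 0.14, FDR 0.921). Established mice were at 33.2 ± 1.90 CPM in WT and 43.5 ± 6.51 CPM in Fosl-2(Tg) mice. Of the 4 group means, that of established WT mice was thus the lowest. Gm15217, on the opposite strand, shares 452 exon bases with Bmp4 and averaged 1.28 CPM.

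Bmp2, the other ligand of the Bmp4 subgroup and a strong inducer of cartilage and bone, ranged from 42.7 to 97.6 CPM in established WT mice (median 72.1) and from 36.01 to 85.2 CPM in Fosl-2(Tg) mice (median 70.3). The log2 fold change was -0.11 (SE 0.21, FDR 0.772), with an interval of 2 SE from -0.53 to 0.32. In early mice Bmp2 was 37.6 ± 14.9 CPM in WT and 27.1 ± 8.65 CPM in Fosl-2(Tg) mice (log2 fold change -0.47, SE 0.24, FDR 0.834). Libraries 49 to 52 held 47.4 to 57.3 CPM against 19.03 to 31.97 CPM in the other early mice, and without them the estimate was -0.10 (SE 0.13, FDR 0.929). Bmp5, a ligand related to Bmp6, was an order of magnitude lower. It ranged from 2.99 to 11.7 CPM in established WT and from 1.82 to 8.42 CPM in established Fosl-2(Tg) mice (log2 fold change -0.60, SE 0.38, FDR 0.326), and in early mice its log2 fold change was 0.15 (SE 0.26, FDR 0.942). In established mice the 4 ligands thus included 1 that was higher and 1 that was lower in Fosl-2(Tg) than in WT mice. The other 2 did not pass the test.

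Grem1 encodes Gremlin 1, which binds BMP2 and BMP4 outside the cell. Its level was at most 1.95 CPM in early mice, where the log2 fold change was 0.42 (SE 0.42, FDR 0.910). In established WT mice it ranged from 0.0277 to 0.641 CPM (1 to 22 counts), and in established Fosl-2(Tg) mice from 0.168 to 3.65 CPM (4 to 96 counts). In 2 Fosl-2(Tg) mice, replicates 6 and 7, it reached 2.30 and 3.65 CPM, and the other 5 lay within the WT range. Grem1 did not pass edgeR's count filter in these mice, and DESeq2 tested it without calling it.

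The members were also compared between stages within a genotype, where stage cannot be told apart from sex. In Fosl-2(Tg) mice 5 of 9 members passed, against 47.8% of all genes tested, so their number is near the background of this comparison. Bmp2 (1.28, SE 0.23, FDR 6.1e-05), Id1 (0.99, SE 0.32, FDR 0.0119) and Smad6 (0.88, SE 0.20, FDR 0.000848) were higher on the log2 scale in established than in early Fosl-2(Tg) mice. Id2 (-1.30, SE 0.22, FDR 3.24e-05) and Bmp6 (-0.78, SE 0.18, FDR 0.000789) were lower. With sex as a covariate, which rests on the 2 established males, Id2 (-1.70, FDR 0.00177) and Bmp6 (-1.14, FDR 0.00632) still passed, whereas Bmp2 (0.71, FDR 0.124), Id1 (0.70, FDR 0.300) and Smad6 (0.73, FDR 0.0863) did not. Id1 also missed the threshold with the muscle score as covariate (0.70, FDR 0.0769) and without established Fosl-2(Tg) replicate 2 (0.75, FDR 0.0522).

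In WT mice 1 of 9 members passed, against 5.81% of all genes. Bmp2 was 0.92 higher on the log2 scale in established than in early mice (SE 0.24, FDR 0.0249), and Smad6 (0.63, SE 0.22, FDR 0.0790), Id1 (0.36, SE 0.33, FDR 0.556), Id2 (0.19, SE 0.23, FDR 0.652) and Bmp6 (0.03, SE 0.19, FDR 0.942) did not pass edgeR's test. By limma voom 3 members passed, Bmp2, Grem1 and Smad6 (FDR 0.0241 for Smad6), against 2145 of all 16082 genes. With the muscle score as covariate Smad6 passed in edgeR (0.66, FDR 0.0286), in a fit in which 1403 of 16082 genes passed. The number also moved with the early libraries 49 to 52, 3 of which are WT. Without them 4 members passed, namely Bmp2 (1.43, FDR 0.000214), Id3 (1.23, FDR 0.000608), Smad6 (1.15, FDR 0.000198) and Id1 (0.96, FDR 0.0329). In that fit 3113 of 16468 genes passed, a larger share than in the main fit. Bmp2 lost its call without early WT replicate 4 (FDR 0.0542), 5 (0.0659), 6 (0.0611) or 7 (0.0521), without established WT replicate 3 (0.0657) or 4 (0.0788), and with sex as a covariate (0.40, FDR 0.555). Smad6 also gained one without early WT replicate 1 (FDR 0.0370), 2 (0.0466) or 3 (0.0397).

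The wider pathway was read from 5 lists that together hold 61 genes, of which 52 are not members. In established mice, 1 of the 45 other genes tested passed edgeR's test, against 6.51% of all genes. In early mice 0 of 43 passed, against 0.0396% of all genes, and both DESeq2 and limma voom called 0. By edgeR 4 of these 43 had an unadjusted p under 0.05, as did 917 of all 15138 genes. The gene that passed in established mice was Bambi, which encodes a transmembrane pseudoreceptor that dampens BMP and TGF-β signals. Bambi ranged from 16.1 to 22.9 CPM in established WT mice (median 20.3) and from 10.03 to 15.7 CPM in Fosl-2(Tg) mice (median 13.8). All 7 Fosl-2(Tg) mice were below all 6 WT mice, with a log2 fold change of -0.57 (SE 0.12, FDR 0.0212). Such non-overlap held for 1 of the 45 genes, against 3.81% of all genes tested. The call was lost without established WT replicate 1 (FDR 0.0512) and in the fit of all 28 mice (FDR 0.105). In early mice Bambi ranged from 20.5 to 63.01 CPM in WT and from 23.1 to 58.7 CPM in Fosl-2(Tg) mice.

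Of the ligands, 2 of 12 tested passed in established mice, both members, against 6.51% of all genes. Their median log2 fold change was -0.13, against 0.01 for all genes. The other ligands with the highest level per kilobase were Bmp3 (log2 fold change -0.16, FDR 0.706), an inhibitory relative of the osteogenic BMPs, Gdf10 (-0.18, FDR 0.556) and Bmp8b. None of the 10 receptors and co-receptors passed edgeR's test, DESeq2 and limma voom called 0, and their median was -0.04. By edgeR 2 had an unadjusted p under 0.05, as did 4213 of all 15862 genes. The type I receptor genes Bmpr1b (-0.03, SE 0.16) and Bmpr1a (-0.05, SE 0.11) and the type II receptor gene Bmpr2 (-0.05, SE 0.07) were the highest in level per kilobase. For Bmpr2 the interval of 2 SE reached from -0.19 to 0.10.

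Of 12 antagonists and modulators tested in established mice, 0 passed edgeR's test, against 6.51% of all genes. By edgeR 4 had an unadjusted p under 0.05, as did 4213 of all 15862 genes. DESeq2 called 3 of 15 (Bmper, Chrdl1 and Twsg1), against 2177 of all 21971 genes. Limma voom called 2 of 12 (Chrdl1 and Twsg1), against 1984 of all 15862. Fstl1, a secreted follistatin-like glycoprotein, was the highest of them per kilobase (-0.37, SE 0.20, FDR 0.252), followed by Nbl1, a DAN family antagonist (0.15, SE 0.17, FDR 0.591), and Twsg1, which binds BMPs together with chordin (-0.30, SE 0.10, FDR 0.0818). Chrdl1, a chordin-like antagonist, was 221 ± 21.7 CPM in established WT and 163 ± 42.6 CPM in established Fosl-2(Tg) mice (-0.43, SE 0.15, FDR 0.0902). Its interaction of genotype and stage passed (-0.55, SE 0.17, FDR 0.0413) but was lost with the replicate block (-0.49, FDR 0.0599), without libraries 49 to 52 (-0.48, FDR 0.188) and in 18 of 28 fits with 1 mouse left out, with FDRs up to 0.0784. Chrdl1 was named here for this interaction after its values were seen.

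Of the 9 Smads and intracellular regulators, Bambi alone passed edgeR's test in established mice, against 6.51% of all genes. The median log2 fold change was 0.06. The signalling Smad5 (0.06, SE 0.08), the common partner Smad4 (0.25, SE 0.11, FDR 0.156) and the ubiquitin ligase Smurf2 (0.08, SE 0.08) had the highest levels per kilobase besides. Of the 12 BMP target genes tested, Id2 alone passed edgeR's test and limma voom. Of all genes 6.51% passed by edgeR and 1984 of 15862 by limma voom. DESeq2 called 2 of 14, Id2 and Id4, against 2177 of all 21971 genes. Id4, the remaining gene of the Id family, was at -0.60 (SE 0.19, FDR 0.0766) by edgeR. In edgeR 11 of 12 estimates were below 0, as were 7814 of all 15862, with a median of -0.19, against 0.01 for all genes. The list was chosen with earlier results of these data known, so this count cannot test the pathway. Smad7, the other inhibitory Smad gene (-0.11, SE 0.15), Atoh8 (-0.24, SE 0.23) and Msx1 (-0.08, SE 0.21), which encode transcription factors, did not pass. In early mice 0 of 11 target genes passed edgeR's test, against 0.0396% of all genes, and DESeq2 and limma voom called 0. By edgeR 2 had an unadjusted p under 0.05, as did 917 of all 15138 genes. Estimates were below 0 in 9 of the 11, as in 7977 of all 15138 genes, with a median of -0.28, against -0.01 for all genes. Libraries 49 to 52 touch this early count, since Id1, Id3 and Smad6 are among these genes.

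**Figure D4:**
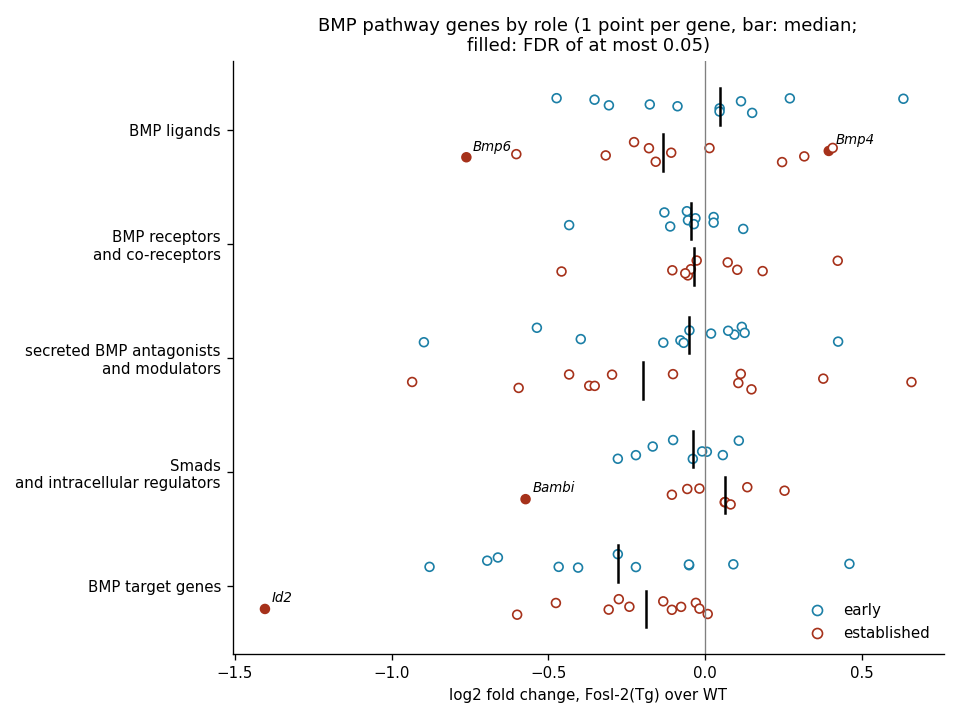
log2 fold change of Fosl-2(Tg) over WT mice (x axis) for the BMP pathway genes tested, by role (y axis), at the early (blue) and established (red) stage; each circle is a gene, the bar is the median of the list and filled circles have an FDR of at most 0.05. The filled circles are Bmp6 (-0.76), Bmp4 (0.39), Bambi (-0.57) and Id2 (-1.40), all established.

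Whether the members vary together between mice was examined on log2 CPM after the mean of each of the 4 groups had been subtracted, for 36 pairs. Over the 24 mice other than libraries 49 to 52, Id1 and Id3 were correlated (Pearson's r 0.80, Spearman's rho 0.82, permutation test, adjusted p 0.0130 and 0.00540), with r 0.73 without the 2 mice farthest from the median. Bmp2 and Bmp6 (r 0.68, rho 0.62) and Bmp6 and Smad6 (r 0.64, rho 0.61) followed, with an adjusted p of 0.0257 for each r and 0.0536 for each rho (permutation tests). Without the 2 farthest mice r was 0.50 and 0.59. Over all 28 mice, 9 pairs passed an adjusted p of 0.05 by rho, against 1 pair over the 24 mice. Among these, Id3 with Smad6 had rho 0.72 over 28 mice (adjusted p 0.00194, permutation test) and 0.33 over 24, and Bmp2 with Id3 had 0.71 (adjusted p 0.00210) and 0.44. These relations thus rested largely on libraries 49 to 52.

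Id2 was not part of these pairs. Its rho over 28 mice was 0.15 with Id1, -0.11 with Id3 and -0.14 with Smad6, and no pair with Id2 passed by rho (permutation tests, adjusted p 0.0951 or higher). Within the 13 established mice, rho was 0.84 for Id1 with Id3, 0.88 for Bmp2 with Bmp6 and 0.58 for Id1 with Id2, given as descriptions.

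**Figure D5:**
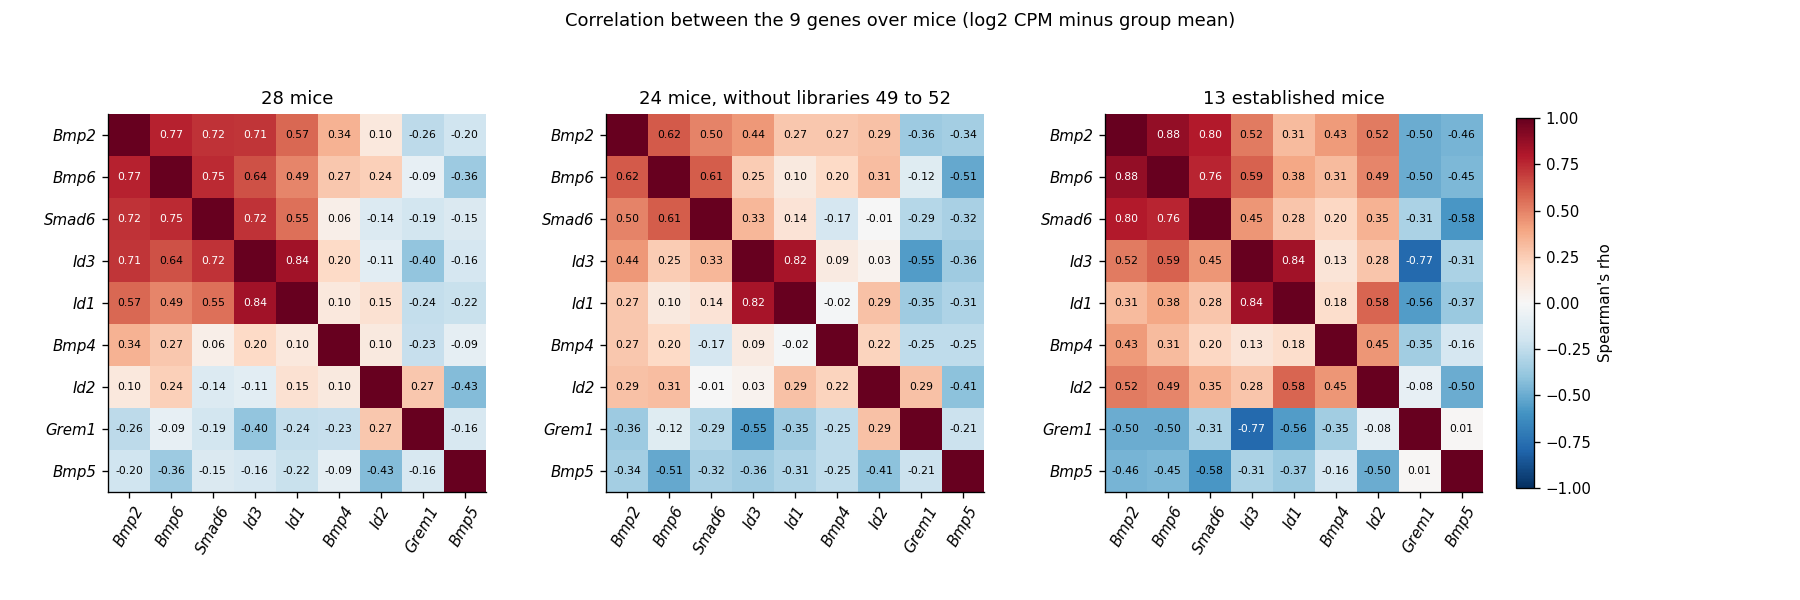
Spearman's rho (colour and printed value) between the 9 genes (both axes), on log2 CPM with the group mean subtracted, over 28 mice, over 24 mice without libraries 49 to 52, and over the 13 established mice. Id1 with Id3 is at 0.84, 0.82 and 0.84 in the panels, while Id3 with Smad6 goes from 0.72 to 0.33 and 0.45.

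Over the 28 mice and 14573 genes with a mean of at least 1 CPM, the genes most like Id2 by Spearman's rho of the same values were the AP-1 genes Jun (0.82) and Fosb (0.80), followed by Rab23 (0.75), a negative regulator of hedgehog signalling. Unlike Id2, Jun and Fosb did not pass the test between established genotypes (log2 fold change 0.31, FDR 0.267, and -0.17, FDR 0.782). The genes most like Bmp6 were Spred2 (0.93), an inhibitor of Ras-MAPK signalling, Plbd2 (0.91) and Bcr (0.91). Those most like Bmp4 were Ap2b1 (0.73), a subunit of the clathrin adaptor, Gpr62 (0.73) and Steap4 (0.71). These likenesses are descriptions over mice that share libraries and scaling.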

How the data were processed

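Gene counts of 28 tail tendon libraries, 1 per mouse, were analysed. The authors mapped reads with STAR to GRCm39 (GENCODE release M26) and counted them with featureCounts; the deposited values are raw counts per gene. Strand and multi-mapping settings are not given in the sources used here. Genes were named with GENCODE M39. With edgeR 4.0.16 (R 4.3.3), low genes were removed with filterByExpr (minimum count 10, total 15), libraries scaled by TMM, and groups compared by quasi-likelihood tests with Benjamini-Hochberg adjustment over all genes (FDR of at most 0.05); the interaction and stage contrasts came from a single fit of 4 groups. Per-mouse CPM were scaled over all 28 libraries, with a prior count of 2 on the log2 scale. Correlations were tested with 100000 two-sided permutations within groups and adjusted over 36 pairs (scipy 1.17.1). The fits were tested on simulated counts. Intervals of 2 SE reflect the spread between mice.

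Named genes were the members, Fosl2, other pathway genes that passed in a genotype comparison, up to 3 per list with the highest CPM per kb of exon, and the 3 genes most like each member that passed. The members and lists were chosen with earlier results of these data known. The deviations of all 7 same-numbered pairs of early mice correlated (r 0.140 to 0.404). Values for differently numbered mice are not given here, so whether replicate numbers pair the mice is not known. In established mice r ranged from -0.225 to 0.689. The main fits left pairs out, and the replicate block was fitted as an alternative. For the interaction that block held replicate numbers within both stages. Alternatives were DESeq2 1.42.0, limma 3.58.1 voom, other scaling and filters, covariates, left-out mice and, chosen after seeing the data, omission of libraries 49 to 52. Promoters were not printed for members other than the 3 shown. Figures used matplotlib 3.10.9.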

Additional observations from a re-analysis of the deposited data

Results flagged for a closer look

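In 4 cases a single value stood away from the rest of their group of 6 to 8 mice, a gap that chance gives in about 1 in 20 groups; 44 groups of the members, Bambi and Chrdl1 were examined. In early Fosl-2(Tg) replicate 1, which is library 52, Bmp2 (47.4 CPM), Id1 (29.3 CPM) and Id3 (95.9 CPM) were the highest of the group. The other 7 early Fosl-2(Tg) mice held at most 26.9, 13.5 and 46.8 CPM. In established WT replicate 5, the male of that group, Bmp4 was the lowest (29.5 CPM).

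Genotype effects differed between the stages for Id2 (interaction on the log2 scale -1.50) and for Chrdl1 (-0.55), tested by the interaction term in edgeR. In Id2 the genotype effect was 0.09 early and -1.40 established, and in Chrdl1 0.12 and -0.43. Stage and sex cannot be told apart in this difference. Without libraries 49 to 52 the estimates were -1.43 for Id2 (FDR 0.0571) and -0.48 for Chrdl1 (FDR 0.188), in a fit in which 150 genes passed.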

How the results depend on the processing

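The counts of genes passing moved with the test and with the mice used. In early mice, 6 genes by edgeR compare with 25 by DESeq2, 10 by limma voom, 11 with the replicate block, 0 without libraries 49 to 52 (edgeR) and 4 to 12 with 1 mouse left out, and no member passed in any. In established mice, 1032 genes compare with 2177 by DESeq2, 1984 by limma voom, 1696 with the muscle score, 560 without the 2 males, 1663 in the fit of all 28 mice and 361 to 1166 with 1 mouse left out, where 1 to 3 members passed. For the interaction, 1195 genes compare with 1951 by limma voom, 2000 with the replicate block, 725 without the males, 150 without libraries 49 to 52 and 702 to 1876 with 1 mouse left out. Members passing the interaction went from 1 to 2 with DESeq2, a mean of at least 1 CPM, the replicate block, the muscle score or sex as covariate, to 0 without libraries 49 to 52, and 1 to 2 with 1 mouse left out; the second was Bmp6. For WT mice between stages, 935 genes (1 member) compare with 1561 by DESeq2, 2145 (3 members) by limma voom, 1403 (2 members) with the muscle score, 432 (0 members) with sex, 3113 (4 members) without libraries 49 to 52, and 419 to 1391 (0 to 2 members) with 1 mouse left out. For Fosl-2(Tg) mice, 7685 genes (5 members) compare with 4887 (2 members) with sex, and 4 to 6 members passed with 1 mouse left out. Correlated pairs went from 9 to 1 by Spearman's rho and from 9 to 3 by Pearson's r without libraries 49 to 52.

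No estimate given above that passed in its main fit changed sign. Those that changed sign in early mice were Bmp6 by limma voom (-0.10), Bmp5 (-0.030) and Id3 (0.19) with the muscle score, Id3 (0.37) and Smad6 (0.15) without libraries 49 to 52, and, with 1 mouse left out, Bmp6 (-0.051 to 0.12) and Id2 (-0.058 to 0.19). In established mice they were Id1 by limma voom (0.11), Smad6 with the replicate block (0.031) and without the males (0.033), and, with 1 mouse left out, Id1 (-0.25 to 0.089), Smad6 (-0.11 to 0.064) and Bmp2 (-0.22 to 0.0052). Between WT stages they included Bmp6 (-0.29), Id2 (-0.16) and Id3 (-0.014) with sex, and Bmp6 with 1 mouse left out (-0.064 to 0.10). Of these, Id3 had passed without libraries 49 to 52 (1.23, FDR 0.000608 by edgeR). Between Fosl-2(Tg) stages Bmp5 changed sign without the males (-0.20). For the interaction, Id3 (-0.50), Smad6 (-0.15) and Bmp2 (-0.0015) did so without libraries 49 to 52. With the muscle score the interaction changed sign for Id3 (-0.28) and Smad6 (-0.0076). The cause of these changes was not tested. The replicate block changed no call of a member within a stage; in the stage comparisons within a genotype it could not be fitted. Grem1 had 1 to 96 counts per library.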
